A study of Mus musculus with 2 samples.

Results

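The 7 miRNAs described here are the 5 members of the miR-200 family (miR-200a, miR-200b, miR-200c, miR-141 and miR-429) with miR-203 and miR-205, microRNAs best known from epithelial cells. They were chosen by name from the array annotation, with every probe that carries one of these names, giving 14 probes for 7 of the 1080 miRNAs on the array. RNA came from ICR mouse embryos of embryonic days E10.5 and E11.5, and was taken from the mandibular arch, medial region, which corresponds to the tongue primordium. Each stage was a single pool of 40 embryos, hybridised to 1 array of 1 colour, and no treatment or altered genotype is named in the labels. There was thus 1 sample a stage, no difference could be tested, and each value describes these 2 arrays. An error given as SD is taken over the replicate spots of 1 probe, or over the negative control spots, on 1 array. An SE of a difference combines the spot errors of both arrays and of the probes or miRNAs averaged. Both cover variation among spots within an array only.

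MicroRNAs of the miR-200 family repress Zeb1 and Zeb2, transcription factors that silence E-cadherin, and so help to hold epithelial cells in the epithelial state. miR-205 is abundant in progenitor cells of stratified epithelia and also acts on the Zeb factors, while miR-203 rises as epidermal cells leave the progenitor state and represses p63, a factor of those progenitors. The mandibular arch is built of neural crest and mesodermal mesenchyme under a thin covering epithelium, and the tongue muscle precursors enter the mesenchyme.

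The mature sequences are shown because the family divides in 2 ways, by transcript and by seed, the stretch of bases 2 to 8 that pairs with target messages. All 7 members matched the RefSeq miRNA table (GRCm38.p6). The sequences run 5′ to 3′ with the seed in capitals.
miR-200b: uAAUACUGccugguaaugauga
miR-429: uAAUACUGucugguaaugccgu
miR-200c: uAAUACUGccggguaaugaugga
miR-200a: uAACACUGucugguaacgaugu
miR-141: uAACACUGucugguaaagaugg
miR-203: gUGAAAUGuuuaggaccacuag
miR-205: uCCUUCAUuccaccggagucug
The seed AAUACUG belonged to miR-200b, miR-429 and miR-200c, and to no other of the 1679 mature mouse miRNAs in the table (0.179%). The seed AACACUG belonged to miR-200a and miR-141 alone (0.119%). Counted from the 5′ end, a single change, U4C from miR-200b to miR-200a, separates the seeds. The seeds of miR-203 and miR-205 were each found in 1 mature miRNA of the table. miR-205 is a 5p arm, and the other 6 members are 3p arms.

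The seed groups and the genomic clusters cross. miR-200b, miR-200a and miR-429 lie together on chromosome 4, and miR-200c and miR-141 on chromosome 6, so that each cluster holds both seeds. In mm9, the build of the array files, the probe targets on the minus strand were chr4:155429840-155429855 for miR-200b, chr4:155429063-155429079 for miR-200a and chr4:155428068-155428085 for miR-429. On chromosome 6, also on the minus strand, they were chr6:124668392-124668406 for miR-200c and chr6:124667985-124668000 for miR-141. miR-205 was at chr1:195333670-195333684 on the minus strand and miR-203 at chr12:113369143-113369159 on the plus strand. The listed spans are those of the longer probe of each pair and are 1 base shorter than the probe itself. Each of the 14 probes maps to 1 place in the file. By names in the GRCm38.p6 gene table, the chromosome 4 cluster lies within the span of the gene Gm13648, miR-205 within its host gene Mir205hg, the chromosome 6 cluster between Phb2 and Ptpn6, and miR-203 between Aspg and Kif26a. Whether they fall in exons or introns was not examined.

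The family's near identity bears on what a probe can read, because the probes are complementary to the 3′ part of the miRNA. Base 4, where the 2 seeds differ, was within the reach of 1 of the family's 10 probes. miR-200b and miR-200c differ at 2 of 22 positions (U11G and A22G), as do miR-200a and miR-141 (C17A and U22G). In a comparison without gaps, both miR-200b probes had 2 mismatches to miR-200c, and both miR-200c probes had 3 to miR-200b. The probes of miR-200a and of miR-141 had 2 mismatches to each other's miRNA. The miR-429 probes had at least 3 mismatches to any other family member, and those of miR-205 and miR-203 had at least 7 to any other member. How far a probe picks up its neighbour's miRNA was not tested.

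By the rule used here, which counts spots per probe, detection differed between the seeds. A probe counted as detected if 50% or more of its spots passed the scanner software's flag for signal well above background. miR-200b, miR-429 and miR-200c, which share AAUACUG, were detected at both stages, with 100% of spots on both probes. miR-200a and miR-141, which share AACACUG, were detected at neither stage. A looser call per miRNA, given below, detected miR-200a at both stages and miR-141 at E11.5. Of the other members, miR-205 was detected at both stages on every spot, and miR-203 at E11.5 alone. Over the whole array the share of miRNAs detected was 13.3% at E10.5 and rose to 18.4% by E11.5. Since a probe's brightness also depends on its own sequence, these calls do not rank the amounts of the miRNAs.

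**Figure D1:**
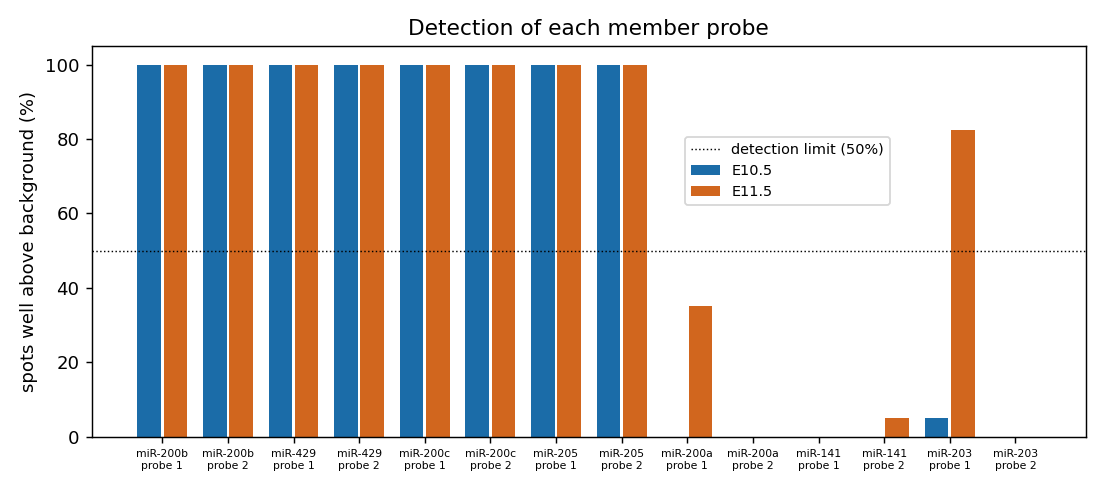
Percentage of spots well above background (vertical axis) for each of the 14 member probes at E10.5 and E11.5, with the 50% detection limit as a dotted line. All 8 probes of miR-200b, miR-429, miR-200c and miR-205 stand at 100% at both stages, and of the other 6 probes 1, for miR-203, passes the limit, at E11.5.

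Brightness over the detected probes has to be set beside any change between the stages. Over the 218 probes detected on both arrays, the median unscaled log2 ratio was 1.20, higher at E11.5. Each array was therefore divided by the 75th percentile of these probes, which took 1.31 off every log2 difference. Both the unscaled intensities and the scaled differences (E11.5 minus E10.5) are given, and a scaled difference describes abundance relative to the other detected miRNAs. Of 1080 miRNAs, 137 had a probe detected on both arrays, and their median scaled difference was -0.07. That median was 1.24 unscaled, 1.15 when scaled to the 75th percentile of all miRNA probes and 0.84 when scaled to control probes. Negative controls averaged 7.87 at E10.5 and 5.88 at E11.5. How much of the offset between the arrays is array brightness was not tested. In a tissue sample, fewer epithelial cells and less of the miRNA per cell cannot be told apart.

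The 4 members measured at both stages were all lower at E11.5 as scaled, against 72 of 137 measured miRNAs (52.6%). 3 of them, the AAUACUG members, were at least 2-fold lower, against 19 of 137 (13.9%), and miR-205 was less than 2-fold lower. None was at least 2-fold higher, against 5 of 137 (3.65%). Unscaled, miR-200c and miR-200b were lower at E11.5, as were 13 of 137 (9.49%), and miR-429 and miR-205 were higher. The family's median over its 3 measured members was -1.46, and the median over all 4 was -1.37. Since the family's lower values are known from earlier results on these arrays, the counts are a description.

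mmu-miR-200c, of the chromosome 6 cluster, had the lowest scaled difference of all 137 measured miRNAs, at -1.59 ± 0.034 (SE), or 3.01-fold lower. The next, miR-335-3p, was level with it within these errors, at -1.57 ± 0.049 (SE). Over the 14 processing settings described below, which differ in how many miRNAs they measure, miR-200c ranked from 1 to 7 from the lowest. Its 16-base probe read 123 ± 8.71 (SD over 20 spots; lowest 109.8, median 126, highest 135) at E10.5 and 106 ± 8.76 (SD over 20 spots; lowest 90.9, median 104, highest 122) at E11.5. Before scaling, 14 of the 20 spots at E11.5 were below the lowest spot of E10.5, while the others overlapped. Its 15-base probe read 63.0 ± 6.59 (18 spots) and 49.8 ± 7.14 (20 spots). After scaling the spots of the 2 arrays did not overlap on either probe. miR-200c was thus dimmer at E11.5 even in unscaled intensity, by a mean log2 difference of -0.28, on an array that was brighter over the detected probes.

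mmu-miR-200b, of the chromosome 4 cluster, was at -1.46 ± 0.027 (SE), or 2.75-fold lower, and ranked sixth from the lowest. The 17-base probe of miR-200b read 248 ± 13.5 (SD over 19 spots; lowest 226, median 251, highest 271) at E10.5 and 233 ± 12.0 (SD over 20 spots; lowest 212, median 234, highest 256) at E11.5. The unscaled spots overlapped for the most part, with 5 of 20 at E11.5 below the lowest of E10.5. The 16-base probe read 71.7 ± 6.50 and 62.4 ± 7.30 over 20 spots each. Unscaled, the mean log2 difference was -0.15, and scaled the spots of the 2 arrays were apart on both probes.

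mmu-miR-429, the other measured member of the chromosome 4 cluster, was at -1.28 ± 0.028 (SE), or 2.43-fold lower, and ranked 14 from the lowest. The 18-base probe of miR-429 read 79.7 ± 6.76 (SD over 19 spots; lowest 59.97, median 81.5, highest 92.1) at E10.5 and 83.8 ± 7.42 (SD over 20 spots; lowest 67.2, median 83.2, highest 99.2) at E11.5. Its 19-base probe read 79.4 ± 7.74 (18 spots) and 78.8 ± 5.07 (19 spots). The unscaled intensity of miR-429 was nearly the same on both arrays, with a log2 difference of 0.031 and with spots that overlapped on both probes, so its scaled difference is almost wholly the amount taken off by the scaling.

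mmu-miR-205 stood apart from the family members measured at both stages, being clearly higher at E11.5 in unscaled intensity. Of the family members not measured, miR-200a also rose unscaled on its 18-base probe, from 21.3 to 28.1, without reaching detection. The 16-base probe of miR-205 read 206 ± 9.58 (SD over 20 spots; lowest 190, median 206, highest 220) at E10.5 and 288 ± 9.07 (SD over 17 spots; lowest 270.02, median 286, highest 309) at E11.5. Its 15-base probe read 100.2 ± 5.99 (18 spots) and 136 ± 9.90 (19 spots). The spots of the 2 arrays did not overlap on either probe, with E11.5 above E10.5. The unscaled log2 difference was 0.46. This was less than the unscaled difference of most measured miRNAs, and the scaled difference was -0.85 ± 0.018 (SE), or 1.80-fold lower, at rank 29 from the lowest, with a value of 0.36 when scaled to the 75th percentile of all probes and 0.063 when scaled to control probes.

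**Figure D2:**
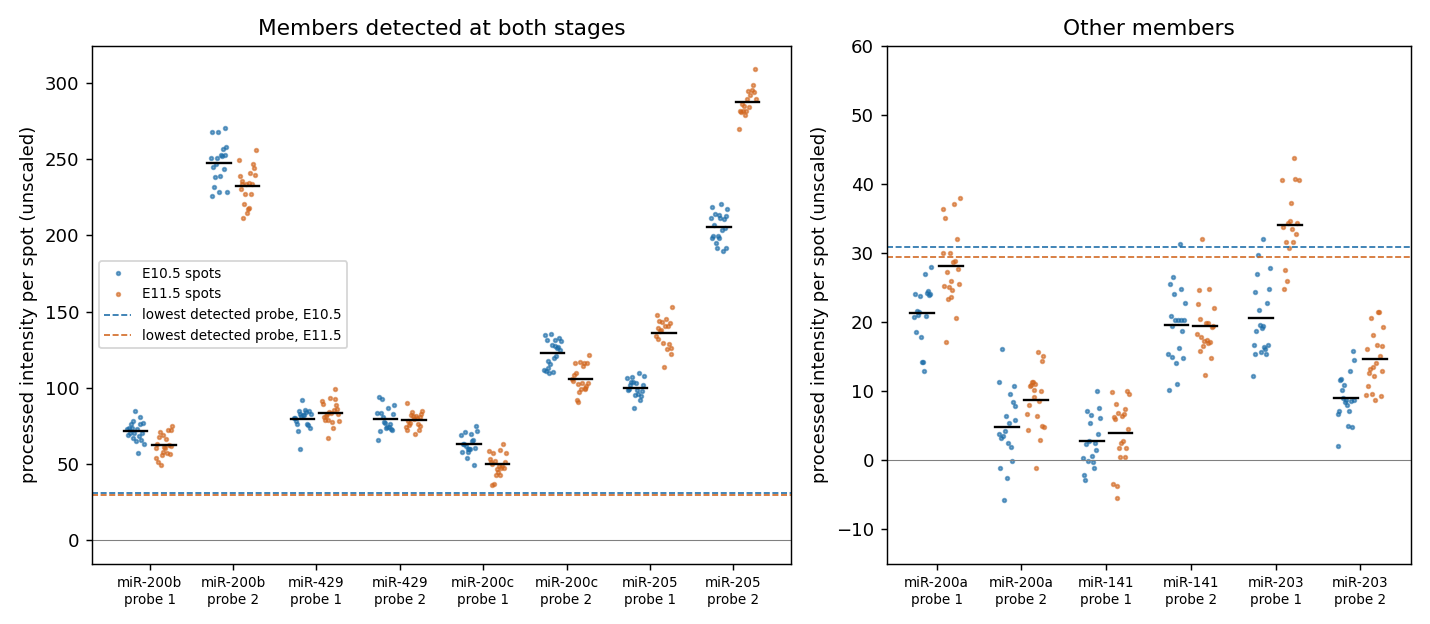
Unscaled processed intensity of every spot (points) of the 14 member probes at E10.5 and E11.5, with black bars for the mean over spots and dashed lines for the lowest detected probe of each array. The miR-200c and miR-200b means are lower at E11.5, the miR-429 means are nearly level, and the miR-205 spots lie wholly higher at E11.5.

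mmu-miR-203 passed detection at the later stage alone. The 18-base probe of miR-203 read 20.6 ± 5.49 (SD over 20 spots; lowest 12.2, median 19.3, highest 32.1) at E10.5, with 1 of 20 spots well above background. At E11.5 it read 34.0 ± 5.30 (SD over 17 spots; lowest 24.8, median 33.8, highest 43.7), with 14 of 17 spots well above background. The highest spots of E10.5 overlapped the lowest of E11.5. Because the E10.5 level is only known to lie under the detection limit, a fold can only be bounded from below, by setting the E11.5 intensity against the dimmest detected probe at E10.5 (30.9). The bound is rough, since that probe is not a strict ceiling for undetected ones, and the highest miR-203 spot at E10.5 (32.1) was above it. Unscaled, the rough bound put miR-203 higher at E11.5 by 1.1-fold or more, and scaled no bound exceeded 1. Its 17-base probe was not detected, at 9.06 ± 3.39 (19 spots) and 14.6 ± 4.12 (20 spots).

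mmu-miR-200a and mmu-miR-141 stayed close to the limit of detection. The 18-base probe of miR-200a read 21.3 ± 4.30 (SD over 18 spots; lowest 12.9, median 21.5, highest 27.9) at E10.5 and 28.1 ± 5.52 (SD over 20 spots; lowest 17.2, median 27.5, highest 38.0) at E11.5. None of its 18 spots was well above background at E10.5 and 7 of 20 (35.0%) were at E11.5. The 17-base probe of miR-141 read 19.6 ± 5.36 and 19.5 ± 4.30 over 20 spots each, with 0 and 1 spots well above background. Spots of the 2 arrays overlapped on every probe of both miRNAs. The other probe of miR-200a read 4.79 ± 5.28 (19 spots) and 8.76 ± 4.23 (20 spots), and that of miR-141 read 2.78 ± 3.68 (18 spots) and 3.95 ± 4.63 (20 spots). Negative controls, 1000 spots an array, averaged 7.87 ± 6.16 (SD) on the E10.5 array and 5.88 ± 5.60 on the E11.5 array. The longer probe of each miRNA thus averaged above the controls without reaching detection. The other averaged below the controls on the E10.5 array for both miRNAs, and on the E11.5 array for miR-141. No fold is given.

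Feature Extraction's own call, made per miRNA rather than per spot, was looser, and with it miR-200a and miR-203 were detected at both stages and miR-141 at E11.5. The authors' value table follows that call. In that table miR-200a was at 9.66 and 4.03, miR-203 at 9.15 and 4.86, and miR-141 at the table's floor of 0.1 at E10.5 and at 2.80 at E11.5. On its scale miR-200a differed by -1.26 (2.40-fold lower) and miR-203 by -0.91 (1.88-fold lower). miR-200b and miR-200c both differed by -1.59, miR-429 by -1.23 and miR-205 by -0.94. There, 28 of 169 miRNAs above the floor at both stages (16.6%) were at least 2-fold lower. All 6 members above the floor at both stages were thus lower at E11.5 there, beside a median of -0.04 over the 169.

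The 2 genomic clusters differed little. The mean scaled difference was -1.37 ± 0.019 (SE) for the chromosome 4 cluster, from miR-200b and miR-429, and -1.59 ± 0.034 for the chromosome 6 cluster, which rests on miR-200c alone. The clusters thus differed by 0.22 ± 0.039, the chromosome 6 cluster being lower. The difference was smallest with quantile normalization (0.075) and was 0.108 with normexp background correction. It was largest, at 0.40, with total gene signal and Feature Extraction's call, which adds miR-200a. Scaling by 1 factor per array cancels in this comparison. The spread within the chromosome 4 cluster was of like size, since miR-200b was lower than miR-429 by 0.18 ± 0.039 on the log2 scale. Between the clusters, miR-200c was lower than miR-200b by 0.13 ± 0.043 and than miR-429 by 0.31 ± 0.044, both of which share its seed. With 1 array a stage, array noise is not part of these errors. Nor is the spread between the 2 probes of a miRNA. By probe, the scaled differences were -1.65 and -1.53 for miR-200c, and -1.52 and -1.40 for miR-200b.

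The 2 seeds could not be compared in stage difference, because neither AACACUG member was detected at both stages. Where Feature Extraction's call admitted miR-200a, the AAUACUG members were lower than it by 0.21 on average in the authors' table (a difference of -0.21), and the total gene signal gave -0.61. In both cases the AACACUG side was miR-200a alone, near the detection limit. miR-200a differed by -0.92 in the second, which is under 2-fold. In the first, the AAUACUG member miR-429 (-1.23) was not lower than miR-200a (-1.26).

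miR-205 was set apart from the family by more than the clusters were from each other. Its difference exceeded the family median by 0.61, and it lay above miR-429, the nearest family member, by 0.43 ± 0.034 (miR-429 minus miR-205 was -0.43) and above miR-200c by 0.74 ± 0.039 (-0.74 as miR-200c minus miR-205). Of the 6 pairs among the 4 measured members, the 3 that include miR-205 had the largest differences. Over 14 processing settings, the one reported included, miR-205 was the highest of the 4 in all 14, by 0.29 to 0.52 over the next member, and miR-200c was the lowest in 13, the exception being quantile normalization (-1.526 against -1.532 for miR-200b). No scaling, and scaling to all miRNA probes, to the median or to control probes, change only the factor that divides each array. These settings cannot alter the order, and the setting with a floor left the values of the 4 unchanged. In the setting with total gene signal and Feature Extraction's call, miR-200a, near the detection limit, was level with miR-205 (-0.92 against -0.95), so miR-205 was not above every family member there. All 4 were below the median of all measured miRNAs in each of the 14. A change of the factor moves the 4 and that median alike, so settings that change only the factor could not differ here. The place of the 4 against 0 did depend on the scaling: unscaled, miR-205 and miR-429 were above 0.

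**Figure D3:**
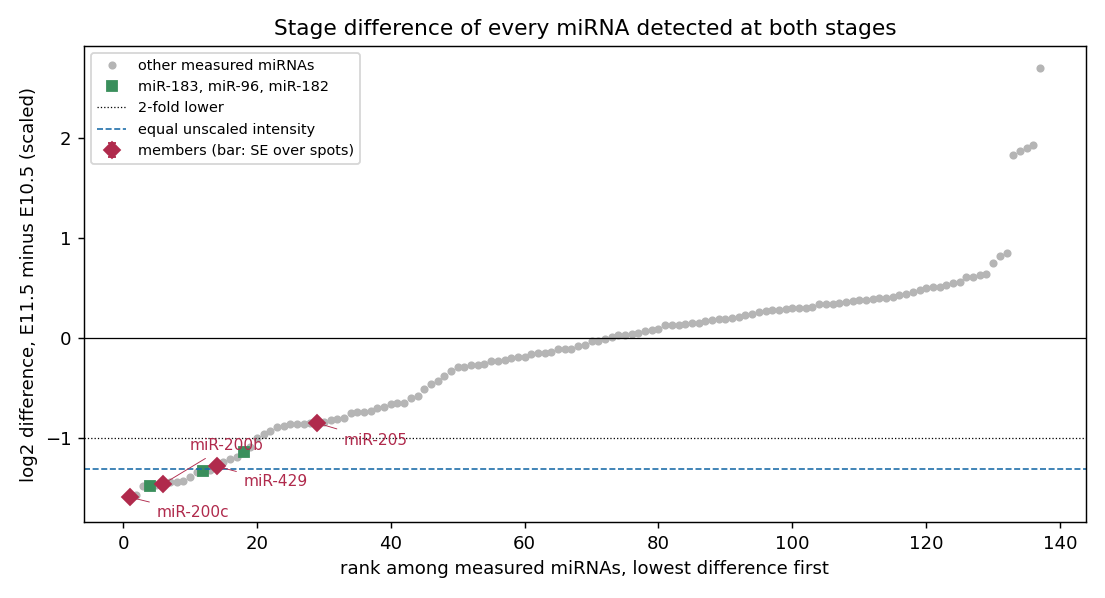
Scaled log2 difference (vertical axis) of the 137 miRNAs detected at both stages, in rank order, with the 4 measured members as diamonds (bars are SE over spots) and miR-183, miR-96 and miR-182 as squares. Points below the dashed line, 1.31 under 0, were dimmer at E11.5 in unscaled intensity; miR-200c and miR-200b lie below it, miR-429 just above, and miR-205 well above, at -0.85.

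**Figure D4:**
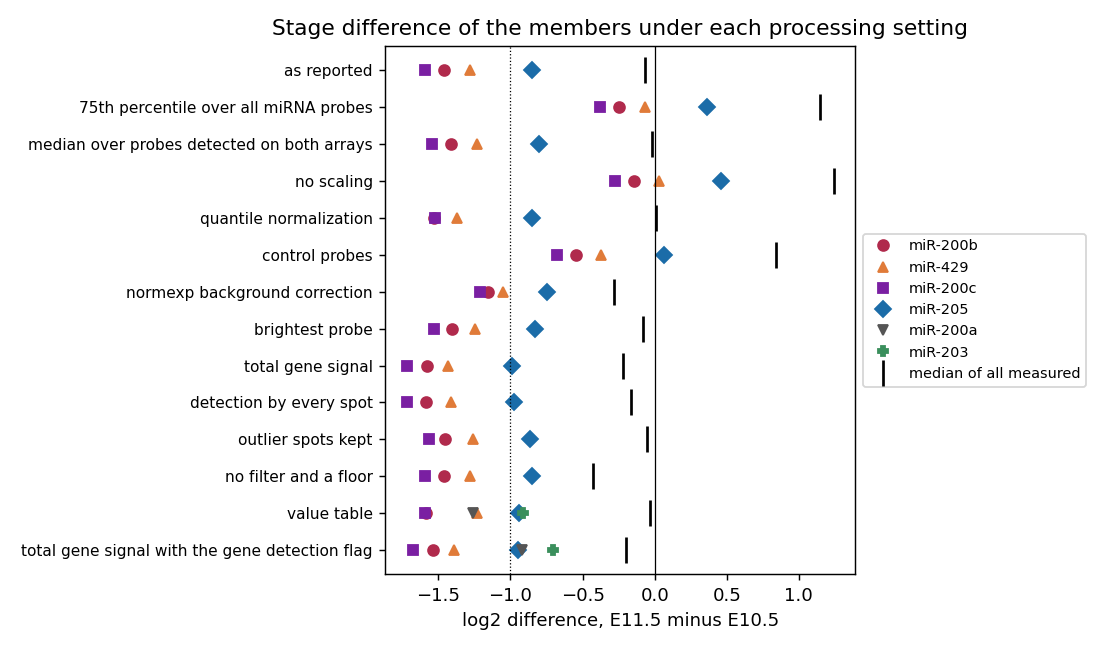
Log2 difference, E11.5 minus E10.5, of each member under 14 processing settings (one a line), with the median of all measured miRNAs as an upright bar and 2-fold lower as a dotted line. miR-205 is to the right of miR-200b, miR-429 and miR-200c in every setting, and all 4 lie to the left of the median bar; miR-203 is left out of the setting with a floor, where its E10.5 value is the floor itself.

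The passenger strands of all 7 members were on the array with 24 probes, and 0 of the 24 passed detection on either array. The mean intensities of these probes ran from -9.40 to 5.20 at E10.5 and from -6.66 to 5.15 at E11.5, below the mean of the negative controls at both stages. None of their spots, 268 on the E10.5 array and 263 on the other, was well above background. Each member detected was thus seen on the listed arm only.

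Other miRNAs known from epithelia gave a similar picture where they were detected. Of 8 such miRNAs on the array, the 3 of the cluster expressed in sensory epithelia, miR-182, miR-183 and miR-96, were detected at both stages and all 3 were at least 2-fold lower as scaled, beside the 13.9% of all measured miRNAs. Their unscaled differences were -0.16 for miR-182, -0.02 for miR-183 and 0.18 for miR-96, within the range of the miR-200 family members and miR-205. The value of miR-182 rests on 1 probe. miRNAs not listed as epithelial were also among the 19 at least 2-fold lower as scaled, such as miR-20b (-1.44), miR-20a (-1.24) and miR-92a (-1.21). miR-31, miR-184, miR-375, miR-192 and miR-194, known from skin, eye or gut epithelia and glands, were undetected in both arrays. The miRNAs outside the 7 whose scaled difference lay nearest the family median were miR-3096b-3p (-1.47, a distance of 0.011), miR-182 (-1.48, 0.017) and miR-1949 (-1.48, 0.0202). This likeness is over 2 arrays, that is over 1 difference per miRNA.

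Markers of other cell types in the tissue are given beside the 7 members. The summed intensity of the 7 was 524 at E10.5 and 573 at E11.5, a log2 change of 0.13 unscaled and -1.19 scaled. Within this unscaled sum miR-205 rose most (153 to 212), miR-200b (160 to 148) and miR-200c (93.0 to 77.8) fell, and the others rose by less. For 5 mesenchymal and smooth muscle miRNAs (miR-199a-5p, miR-199a-3p, miR-214, miR-143 and miR-145), with 3 detected on the earlier array and 4 on the later, the sum was 5011 and 13439, a log2 change of 1.42 unscaled and 0.11 scaled. For 4 striated muscle miRNAs, 0 detected on the earlier array and 4 on the later, the sum was 12.9 and 456. Endothelial miR-126-3p was at -0.81 as scaled (0.50 unscaled), close to miR-205, and erythroid miR-451 at -0.60, the other miRNA of each of these pairs being undetected in both arrays. Of 3 neural miRNAs, miR-124 and miR-9 were undetected in both arrays and miR-218 was at 0.50. Among 4 leukocyte miRNAs, miR-223 passed detection, at the later stage, with unscaled mean intensities of 23.8 at E10.5 and 27.8 at E11.5. The part that a changed share of mesenchyme or muscle has in the scaled difference of the 7 was not tested.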

How the data were processed

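RNA from 1 pool of 40 embryos a stage was labelled with Cy3, per the labels' protocols. Per the file headers, each spot's deposited intensity had its background subtracted and spatial trends removed; no scaling between the arrays was applied. Feature Extraction 10.7.1.1 and build mm9 are named there, and version 9.5.1.1 appears in the submitters' processing notes. The authors' deposited value table gives 1 linear intensity per miRNA, and its normalization is not given in the sources used here.

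Outlier-flagged spots (2058 of 43200 miRNA spots at E10.5, 2118 at E11.5) were left out, the rest averaged per probe, and the arrays scaled as described. No miRNA spot was saturated. Where both probes of a miRNA were detected on both arrays, their log2 differences were averaged. Precision is limited by the number of arrays. The members and lists, with the rule to name all members, their passenger strands, listed epithelial miRNAs detected at either stage and the 3 nearest miRNAs, were chosen with earlier results of these data known. Other names are markers of the listed cell types, or listed epithelial miRNAs that were not detected. Detection flags were used as deposited. The steps were run on simulated data, with errors scored after removing the shift common to all miRNAs, so the choice of scaling was not tested. Alternatives covered scaling, normexp background correction (offset 50), the brightest probe, total gene signal, detection, outlier spots, a floor and the value table. Python 3.11.15, numpy 2.4.6, pandas 2.3.3, matplotlib 3.10.9, R 4.3.3 and limma 3.58.1 were used.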

Additional observations from a re-analysis of the deposited data

How the results depend on the processing

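No paired analysis was possible because each stage has 1 array, and no replicate could be left out. The family median of -1.46 was -0.15 with no scaling, -0.24 with the 75th percentile over all miRNA probes, -0.55 with control probes and -1.15 with normexp background correction. Above 0 were miR-205 (0.46 unscaled, 0.36 with that percentile over all miRNA probes, 0.063 with control probes) and miR-429 (0.031 unscaled). miR-205 minus the family median was 0.41 with normexp. The cluster difference of 0.22 was 0.40 with the total gene signal and gene detection flag, a setting added after the data were seen, which adds miR-200a. The seed difference, with no value as reported, was -0.21 with the value table and -0.61 with that flag. miRNAs at least 2-fold lower (19 as reported) numbered 0 under the 3 scalings named, 51 without a filter but with a floor, and 35 with the flag, and those at least 2-fold higher (5) numbered 88 with no scaling, 80 with the 75th percentile over all miRNA probes, 57 with control probes and 9 with the value table. Signal over background limits miR-200a, miR-141 and miR-203, whose probes lay near or under the lowest detected probe of each array.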
